A study of Drosophila melanogaster with 2 samples.

Results

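The JAK/STAT pathway genes described here are 10 genes chosen by name for their known roles: the ligand genes upd1, upd2 and upd3, the receptor genes dome and et, the kinase gene hop, the transcription factor gene Stat92E, and the inhibitor genes Socs36E, Ptp61F and Su(var)2-10. All 10 were found among the 13945 protein-coding genes of the annotation, and 13 of the 3974 peaks used lay at them. The identifiers are FBgn0004956 (upd1), FBgn0030904 (upd2), FBgn0053542 (upd3), FBgn0043903 (dome), FBgn0031055 (et), FBgn0004864 (hop), FBgn0016917 (Stat92E), FBgn0041184 (Socs36E), FBgn0267487 (Ptp61F) and FBgn0003612 (Su(var)2-10). They were examined for recovery of tagged Six4, a homeodomain protein that binds DNA. In this pathway secreted Unpaired ligands bind a cytokine-type receptor, the bound receptor activates the Janus kinase encoded by hop, and the kinase phosphorylates Stat92E, which then enters the nucleus and switches on target genes. Socs36E is one of those targets and feeds back as an inhibitor. In the fly embryo the pathway is known for its parts in segmentation, in gut and tracheal morphogenesis and in the gonad.

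The study mapped Six4 by chromatin immunoprecipitation and sequencing with an antibody against green fluorescent protein (GFP). The single group was whole embryos, 0 to 16 hours old and of both sexes, from a transgenic line (strain Six4-GFP) in which GFP is fused to the C terminus of Six4. Chromatin was sheared by sonication to 200 to 800 bp. There were 2 samples, biological replicates 1 and 3 from separate biosamples of 1 line, and no second group, so no conditions were compared. The embryos hold all tissues together, and the labels do not say whether untagged Six4 was also present. The values are peak lists. A set of 3974 peaks had passed the irreproducible discovery rate (IDR) procedure, which rests on how alike peaks rank in replicates. The set equalled the strongest entries of a pooled list of 30000 that also holds background. Single peaks in it need not rank alike, and 5.13% differed over 3-fold in replicate rank. The lists of replicates 1 and 3 held 30000 and 28237 entries. Signal is the peak caller's own value and its scale differs between lists, so ranks (1 for the strongest) are given beside it. Read depth is unknown.

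Peaks of the IDR set lay inside Stat92E, Socs36E and Ptp61F. Every peak in the windows of Ptp61F and Su(var)2-10 was nearest to the start site of a neighbouring gene. So were the weakest Stat92E peak and the second strongest Socs36E peak, while the others at these genes were nearest to their own. The windows of upd1, upd2, upd3, dome, et and hop held no IDR peak. A gene window was the gene body with 2 kb added on each side. Of the 10 genes, 4 had a summit (the highest point of a peak) in their window, 13 summits in all, against 31.2% of all protein-coding genes, and with 10 genes this is near the background. Stat92E held 3 summits, Socs36E 4, Ptp61F 5 and Su(var)2-10 1. Windows with 3 or more summits were 3 of the 10, against 2.96% of all protein-coding genes. These 3 windows are long, and among all protein-coding genes 9.92% of windows of 15 to 30 kb, the class of Stat92E and Socs36E, and 28.2% of those over 60 kb, the class of Ptp61F, held as many. By a stricter rule, with each summit given to the nearest transcription start site (TSS) of a protein-coding gene, 3 of the 10 genes had a summit, against 19.4% of all: Stat92E, Socs36E and upd1. The signal of the 13 summits ranged from 81.7 to 663.5 with a median of 137.0, beside 128.3 over the IDR set.

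The sequences of 5 of these peaks, 100 bp to each side of the summit, are shown because they hold the peak nearest to a Stat92E start site, the strongest sites at Socs36E and Ptp61F, and the Stat92E words found under summits. They are from RefSeq Release 6 (build dm6), plus strand. Capitals mark the word TTCNNNGAA, the site bound by Stat92E.
Stat92E, peak ranked 2 of 3, chr3R:20550663-20550863: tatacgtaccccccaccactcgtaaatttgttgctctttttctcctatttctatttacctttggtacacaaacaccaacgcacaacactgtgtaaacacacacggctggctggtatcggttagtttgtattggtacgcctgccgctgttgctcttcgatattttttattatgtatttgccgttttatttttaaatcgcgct
Socs36E, strongest peak, chr2L:18145354-18145554: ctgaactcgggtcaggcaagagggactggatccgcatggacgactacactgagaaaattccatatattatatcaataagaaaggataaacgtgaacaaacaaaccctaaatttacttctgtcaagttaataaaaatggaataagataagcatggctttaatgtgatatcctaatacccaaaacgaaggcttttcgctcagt
Socs36E, peak ranked 3 of 4, chr2L:18148916-18149116: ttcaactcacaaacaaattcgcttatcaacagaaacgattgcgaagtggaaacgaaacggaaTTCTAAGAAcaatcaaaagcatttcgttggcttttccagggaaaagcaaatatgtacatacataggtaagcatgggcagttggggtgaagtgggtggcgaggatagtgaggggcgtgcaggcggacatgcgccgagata
Ptp61F, strongest peak, chr3L:1443035-1443235: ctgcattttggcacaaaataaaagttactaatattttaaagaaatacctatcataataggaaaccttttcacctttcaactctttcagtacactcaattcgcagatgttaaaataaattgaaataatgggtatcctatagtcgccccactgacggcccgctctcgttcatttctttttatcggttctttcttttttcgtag
Ptp61F window, weakest peak, chr3L:1342142-1342342: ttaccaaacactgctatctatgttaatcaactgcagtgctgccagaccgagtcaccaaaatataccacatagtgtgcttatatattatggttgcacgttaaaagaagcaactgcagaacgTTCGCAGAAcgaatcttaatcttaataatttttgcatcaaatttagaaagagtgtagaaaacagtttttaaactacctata

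The ligand genes upd1, upd2 and upd3 lie near each other on X, and no IDR summit fell in any of their windows. They encode the secreted Unpaired proteins. The strongest pooled entry in the window of upd1 (gene 18305354 to 18309291) lay 420 bp upstream of its TSS, with a signal of 33.7 and rank 14181. It had an entry in replicate 3 (signal 22.5, rank 11364) and none in replicate 1. In the window of upd3 (gene 18277233 to 18284596) the strongest of 4 pooled entries lay in an intron, 4950 bp downstream of the TSS (signal 39.5, rank 11017). It ranked 26439 in replicate 1 (signal 11.5) and 13605 in replicate 3 (signal 20.2). Both genes thus ranked far below the strongest 3974 entries in each list that held an entry for them.

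The window of upd2 (gene 18240654 to 18243284) came closest to the IDR set among the ligands. Its strongest pooled entry, 1129 bp beyond the 3′ end of the gene, had a signal of 73.3 and rank 4602, below the lowest signal of the IDR set (81.1). The replicates differed here: the entry ranked 10256 in replicate 1 (signal 20.8) and 3511 in replicate 3 (signal 49.6), where it would have been among the strongest 3974. The nearest IDR peak to upd3 and upd1 lay between them, at chrX:18294052-18294475. Its summit was 9668 bp from the end of upd3 and 11090 bp beyond the 3′ end of upd1, 13995 bp downstream of the nearest upd1 TSS. Its signal of 87.5 (rank 3561) was near the lower limit of the IDR set, and it ranked 3968 in replicate 1 (signal 37.9) and 3711 in replicate 3 (signal 47.7). This peak is the one that the nearest TSS rule gives to upd1.

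The receptor genes and the kinase gene, also on X, had no IDR summit either. The gene dome (19676061 to 19683518) encodes the signalling receptor, and its neighbour et (eye transformer, 19672312 to 19675891) encodes a related short receptor that inhibits the pathway. The strongest of 3 pooled entries at dome lay in an exon 400 bp downstream of the TSS (signal 41.0, rank 10464), with an entry in replicate 3 (signal 34.6, rank 5742) and no overlapping entry in replicate 1. The window of et held no entry in the pooled list or in either replicate list, a state shared by 22.6% of all protein-coding genes for the pooled list. The nearest IDR peak lay 3706 bp from et and 1116 bp upstream of the TSS of Zw, the gene for glucose-6-phosphate dehydrogenase (signal 361.5, rank 233). At hop (11360930 to 11368098), the Janus kinase gene, the strongest of 4 pooled entries lay outside the gene, in the coding sequence of its neighbour Pa1 (signal 42.9, rank 9790). It ranked 25205 in replicate 1 (signal 11.8) and 7363 in replicate 3 (signal 29.2). The nearest IDR peak was 9399 bp from hop, 923 bp from the TSS of CG1737, with a signal of 264.7 (rank 495).

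The 6 genes without a summit are the 6 that lie on X, so arm and role cannot be told apart among them. Of X-linked protein-coding genes, 29.6% had a summit. Their windows, 6.63 to 11.5 kb long, were short beside those of Stat92E, Socs36E and Ptp61F, and of all protein-coding genes with windows in that range 36.7% had a summit. The absence of a summit is thus the more common state for genes of this arm and of this length. The part of window length in the contrast between the gene groups was not tested. Male embryos carry fewer copies of X than of the autosomes, and the part of X dosage in the signal was not tested.

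**Figure D1:**
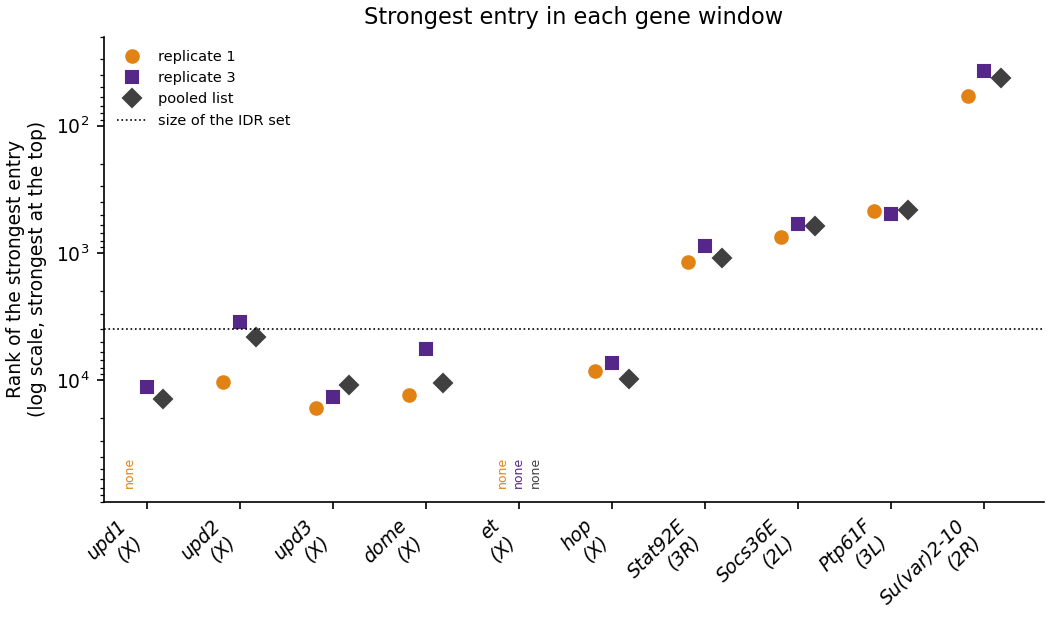
Rank of the strongest entry in each gene window (y axis, log scale, strongest at the top) in replicate 1 (circles), replicate 3 (squares) and the pooled list (diamonds), with the size of the IDR set, 3974, as a dotted line. The 4 autosomal genes lie above the line in all 3 lists, led by the window of Su(var)2-10 at rank 42 of the pooled list. Of the X-linked genes upd2 alone crosses it, in replicate 3 alone.

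Stat92E, the single STAT transcription factor gene of the fly, held 3 summits inside its gene body on the minus strand of 3R (20535323 to 20552311). The stronger pair stood close together near a start site, and the weakest lay deeper in the gene. The strongest peak had a signal of 181.5 and rank 1089 in the pooled list, 66.5 and 1557 in replicate 1, and 113.7 and 878 in replicate 3. Its summit lay in intron 1 of all 11 annotated transcripts, 982 bp downstream of the nearer of the 2 Stat92E TSSs. The second peak (20550551 to 20550974) had a signal of 155.7 (rank 1408), with 77.5 (rank 1173) in replicate 1 and 88.2 (rank 1406) in replicate 3. Its summit was 344 bp downstream of the same TSS, in a non-coding exon of 6 of the 11 transcripts. Both ranked among the strongest 3974 entries of each replicate, with their order reversed between replicates 1 and 3.

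The third Stat92E peak (20542255 to 20542678) did not. It had a signal of 108.5 (rank 2614) in the pooled list, 65.7 (rank 1588) in replicate 1 and 33.0 (rank 6137) in replicate 3. It was thus close in signal to the strongest Stat92E peak in replicate 1, and outside the strongest 3974 entries of replicate 3. The summit lay deep in intron 1, 8640 bp downstream of the nearer Stat92E TSS, and MtnD, a metallothionein gene beyond the 3′ end, had the closest start site at 7505 bp. The next entry in the Stat92E window, outside the IDR set, had a signal of 69.0 (rank 5007).

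Socs36E encodes a suppressor of cytokine signalling and is a direct target of Stat92E, and an enhancer from its intron is widely used as a STAT reporter. On the minus strand of 2L (18138675 to 18152417), it held 4 summits, all within introns. The strongest peak (18145400 to 18145537) had a signal of 234.7 and rank 619 in the pooled list, 96.5 and 747 in replicate 1, and 139.0 and 590 in replicate 3. Its summit lay in intron 1, 6963 bp downstream of the TSS, over an exon of the non-coding gene lncRNA:CR44478. The second peak (18141342 to 18141765), in intron 2 and 10863 bp downstream, had a signal of 137.0 (rank 1776), with 74.9 (rank 1250) in replicate 1 and 62.8 (rank 2494) in replicate 3. Both ranked among the strongest 3974 entries of each replicate. The nearest TSS to the second was that of the neighbour kel, 3471 bp away.

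The other two Socs36E peaks, both in intron 1, stood near the lower limit of the IDR set, and each was carried by a different replicate. The third peak (18148804 to 18149227), 3401 bp downstream of the TSS, had a signal of 82.7 (rank 3856), with 56.0 (rank 2136) in replicate 1 and 28.9 (rank 7494) in replicate 3. The weakest (18151095 to 18151518), 1110 bp downstream, had 81.7 (rank 3929), with 22.6 (rank 8967) in replicate 1 and 59.3 (rank 2720) in replicate 3. Outside the IDR set, 9 more pooled entries lay in the window, the strongest with a signal of 60.5. The window held 7.33 pooled entries per 10 kb, and that of Stat92E 6.19, against 2.24 over the 6 arms, sequence between genes included. The windows of the other pathway genes ranged from 0 at et and 1.26 at upd1 to 4.05 at Su(var)2-10, most of them above 2.24.

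Stat92E words were dense at Socs36E. The window of Socs36E held 20 matches to TTCNNNGAA, or 11.3 per 10 kb, against 3.19 per 10 kb over the 6 arms, and 14 of them lay in intron 1. Of all 13945 protein-coding genes, 69 (0.495%), Socs36E included, had windows at least as dense in this word. Of the 2960 with windows of 10 kb or more, none other was as dense. The Stat92E window had 4.29 per 10 kb, matched or exceeded by 18.1% of such windows. The distances from Six4-GFP summits to these words varied, and whether they differ from those of other positions was not tested. From the 3 Stat92E summits, in order of signal, the nearest word was 287, 351 and 973 bp away. From the 4 Socs36E summits, in order of signal, it was 694, 164, 34 and 413 bp away. The match at 34 bp, in the third peak, is the one in capitals above. The strongest peak lay in a stretch of intron 1 between groups of these words.

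**Figure D2:**
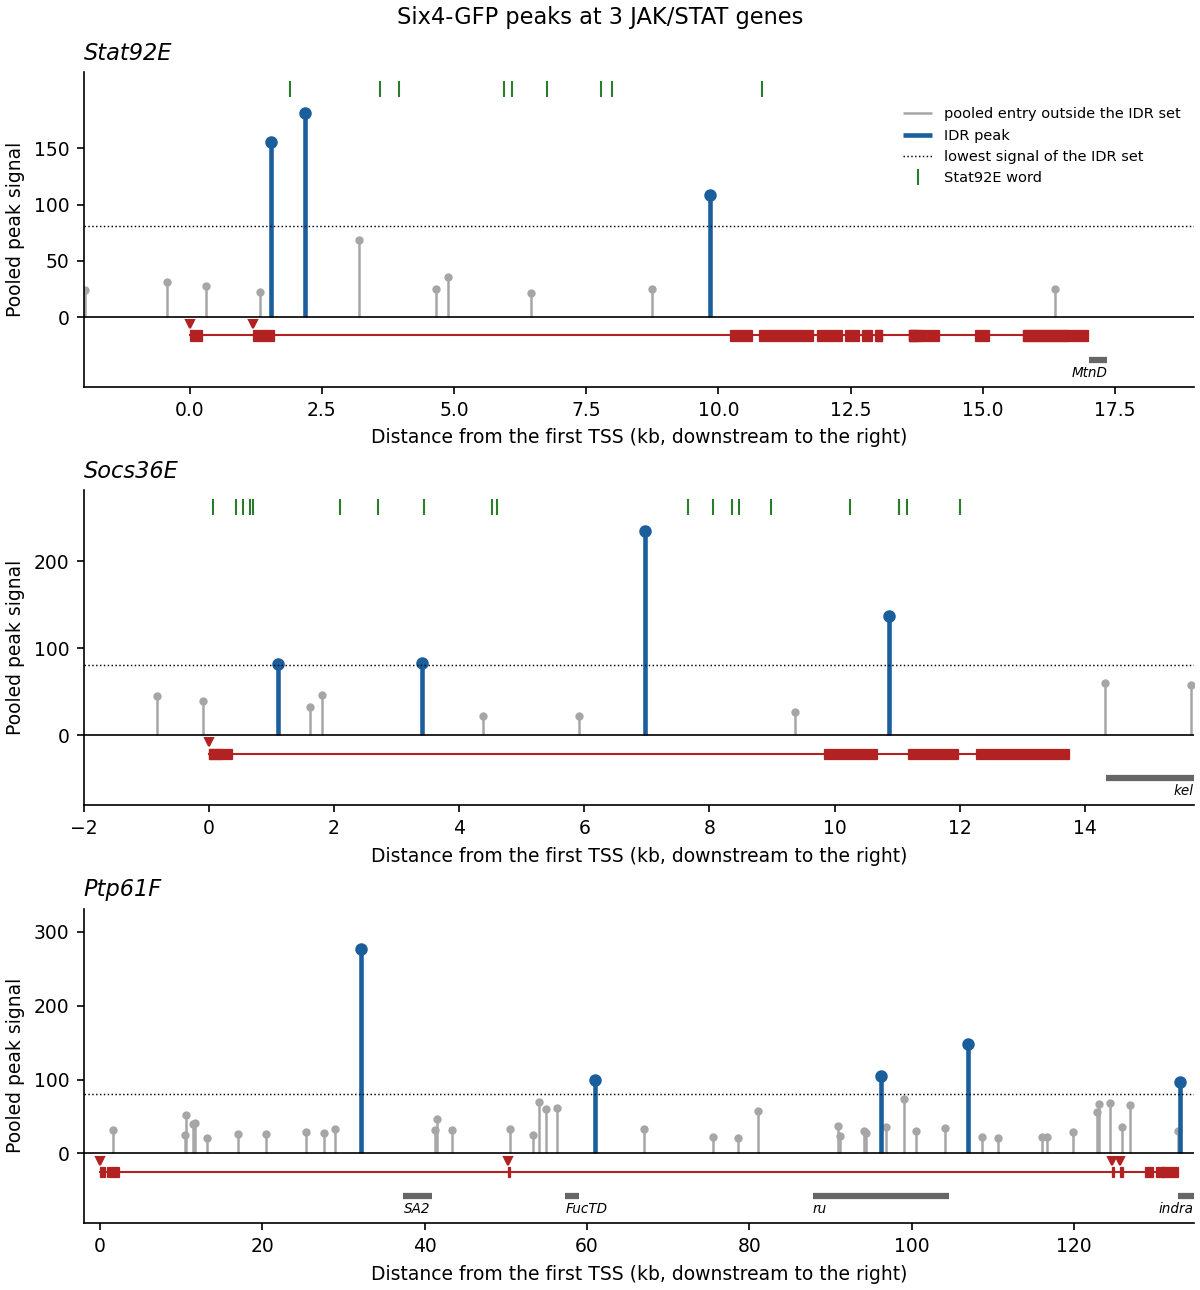
Pooled peak signal (y axis) against distance from the first TSS in kb (x axis, downstream to the right) for Stat92E, Socs36E and Ptp61F, with IDR peaks in blue, other pooled entries in grey and the lowest signal of the IDR set, 81.1, as a dotted line. Below each panel the gene is drawn in red with exons as boxes and start sites as triangles, the neighbours nearest to summits in grey, and green ticks mark TTCNNNGAA words at Stat92E and Socs36E. The Stat92E and Socs36E summits lie within the gene, downstream of the first start site, and the Ptp61F peaks are spread along the gene.

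Ptp61F encodes a protein tyrosine phosphatase that inhibits signalling through Hop and Stat92E. Its window on 3L (gene 1342493 to 1475257, minus strand) spans 137.0 kb, 22.2 times the median window of protein-coding genes, and 11 other protein-coding genes overlap it. It held 5 summits, or 0.366 per 10 kb, close to the 0.297 per 10 kb of the 6 arms and below the 2.25 of Socs36E and the 1.43 of Stat92E. None of the 5 had a Ptp61F TSS as its nearest one. The strongest peak (1443015 to 1443219) had a signal of 276.1 and rank 458 in the pooled list, 121.2 and 468 in replicate 1, and 150.7 and 498 in replicate 3. Its summit lay in intron 3 of the longest transcript, 18156 bp upstream of the nearest Ptp61F TSS and 5263 bp upstream of SA2, a cohesin subunit gene. This was among the steadiest of the 13 peaks between replicates.

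The other Ptp61F summits were also nearest to neighbours. The peak 2327 bp upstream of ru, an intramembrane protease gene, had a signal of 148.2 (rank 1544), with 62.5 (rank 1759) in replicate 1 and 79.2 (rank 1704) in replicate 3. A second one in an intron of ru itself had 104.9 (rank 2739), with 42.9 (rank 3252) and 56.4 (rank 2923) in replicates 1 and 3. The peak 2006 bp upstream of FucTD, a fucosyltransferase gene, had 98.8 (rank 2990), with 34.7 (rank 4567) and 60.8 (rank 2621). The weakest, past the 3′ end of Ptp61F, lay in an exon of indra, 77 bp upstream of the nearest of the indra start sites (97.1, rank 3070), with 33.0 (rank 4942) and 59.1 (rank 2731). It carries the second TTCNNNGAA match among the 13 peaks, 24 bp from the summit. The last pair ranked outside the strongest 3974 entries of replicate 1.

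Su(var)2-10 encodes the fly PIAS protein, a SUMO ligase that inhibits Stat92E and also acts on heterochromatin. Its window on 2R held the strongest peak among the 10 genes, but at the promoter of another gene. The peak (9122046 to 9122362) had a signal of 663.5 and rank 42 in the pooled list, 267.1 and 58 in replicate 1, and 397.4 and 37 in replicate 3. Its summit lay 189 bp beyond the 3′ end of Su(var)2-10 (9116122 to 9122000, plus strand), 5571 bp from its nearest TSS, and 64 bp downstream of the TSS of GstE13, a glutathione S-transferase gene. The next entry in the window had a signal of 61.5 (rank 5868). The peaks closest to it in signal were 1 at the promoter of MFS10 on X (664.2, rank 41), which is also in the window of CG15717, and 1 at the promoter of CG9147 on 2L (663.1, rank 43), which is also in the window of CG9150. This likeness is the difference in signal within the pooled list alone.

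Agreement between replicates was uneven among the 13 peaks. All 13 overlapped an entry of some rank in both replicate lists, as did 99.9% of the IDR set. For 8 of 13 (61.5%) the entry was among the strongest 3974 of both replicates, beside 78.2% of the IDR set. Replicate ranks differed more than 3-fold for 3 of 13 (23.1%), namely the weakest peak of Stat92E and the 2 weakest of Socs36E, beside 5.13% of the IDR set. The 5 peaks outside the strongest 3974 of a replicate were these 3 and the pair nearest to FucTD and indra. The IDR set was itself made from these lists, so these shares describe it and test nothing.

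**Figure D3:**
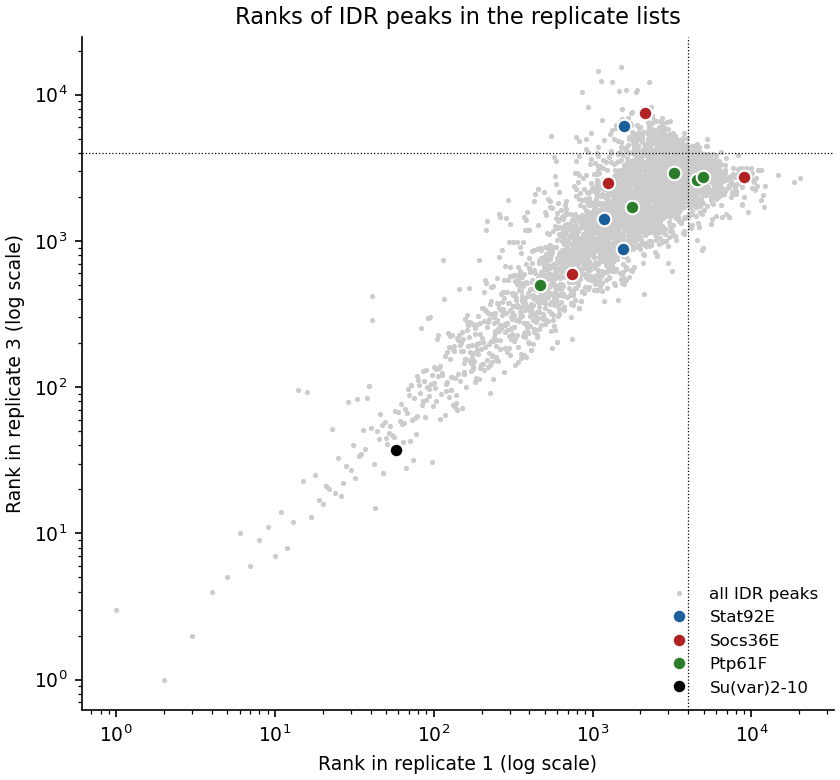
Rank of each IDR peak in replicate 1 (x axis) and replicate 3 (y axis), both on log scales, with all IDR peaks in grey, the 13 peaks in the gene windows in colour and dotted lines at 3974. The peak at Su(var)2-10 and the strongest peaks of Stat92E, Socs36E and Ptp61F lie within both dotted lines, and 5 peaks of Stat92E, Socs36E and Ptp61F lie beyond a dotted line.

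The 13 summits were mostly away from promoters. Of the 13, 3 (23.1%) lay within 500 bp of a protein-coding TSS, beside 46.8% of the IDR set, and of these 3 only the second Stat92E peak was at a start site of a pathway gene. The median distance to the nearest such TSS was 2327 bp, beside 618.5 bp for the IDR set. The GC content of the summit windows had a median of 35.3%, ranging from 27.9 to 47.8%, beside 34.3% for the IDR set.

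Of 7 words searched within 100 bp of the summit on either strand, at least 1 was found at 4 of 13 summits (30.8%), beside 35.2% of the IDR set, a share near the background. TGATAC, the core of the site bound by Six4 and its relatives, was found at 1 of 13 summits (7.69%), beside 6.49% of the IDR set. This match lay at the strongest Stat92E peak, 5 bp from the summit. TTCNNNGAA was found at 2 (15.4%), beside 5.28%. A single summit is 7.69% of the 13, so these shares are coarse. The GAGA factor word GAGAGAG was at 1, the summit in an intron of ru (3.82% of the IDR set). The homeodomain word TAATTA was at 0 of 13, beside 18.4% of the IDR set. The words for MEF3 (TCAGNTTTC), the DNA replication-related element (TATCGATA) and M1BP (GGTCACACT) were at 0 of 13 too, beside 1.03%, 3.40% and 1.33%. The 4 matches lay at 4 different summits, so none overlapped another.

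Other genes of the pathway were taken in 2 lists by known role. The lists were chosen with earlier results of these data known, so their counts describe and test nothing. Of 13 regulators 8 (61.5%) had a summit in their window, and of 13 reported targets 9 (69.2%), against 31.2% of all protein-coding genes. Of the 26 genes, 17 had a summit, and with no extension of the gene body 8 had one. The 31.2% is for windows with the extension, so it is not the share to set beside the 8. Many of these genes are long. The median window was 9.98 kb for the regulators and 24.2 kb for the targets, against 6.17 kb for all protein-coding genes. The share of all protein-coding genes with a summit was 21.3% for windows of 4 to 6 kb, 33.2% for 6 to 9 kb and 42.3% for 9 to 15 kb. It was 49.8% for 15 to 30 kb, 52.3% for 30 to 60 kb and 61.8% for windows over 60 kb. The part of window length in the counts was not tested.

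Among the regulators, apt, which encodes a DNA-binding protein that dampens Stat92E in border cells, held 8 summits, with signals of 83.6 to 206.9 and the strongest in its intron. The repressor gene ken, whose product silences some Stat92E targets, had 1 intronic summit with a signal of 307.0 (rank 351), ranking 394 in replicate 1 and 343 in replicate 3. A summit 50 bp upstream of mask had a signal of 132.0, and 1 lay 1605 bp upstream of the SOCS gene Socs16D (102.6). The strongest peaks in the other regulator windows were nearest to neighbours. That at the gene for heterochromatin protein HP1a (FBgn0003607) lay 36 bp downstream of the TSS of CG8360 (667.2), and that at Stam lay 21 bp upstream of the TSS of Dnz1 (118.5). For Socs44A, coil was nearest (98.6), with the summit 134 bp upstream of coil and 199 bp upstream of Socs44A itself. For Cdk4, RpLP2 was nearest to the strongest peak (132.7), and a weaker summit (123.8) was nearest to a Cdk4 TSS. E(bx), lwr, Hrs, BRWD3 and CycD had none.

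Among the reported targets, the transcription factor genes zfh1 (intron, signal 364.9, rank 226) and slbo (376.8, rank 209, 4545 bp downstream of its TSS) had the strongest summits. That of slbo lay past its 3′ end, over an exon of the non-coding gene lncRNA:CR44810. The peak of chinmo lay 1750 bp upstream of its TSS (236.9), that of the tracheal gene trh 356 bp upstream of the nearest of its TSSs (191.9), and that of crb in an intron 986 bp downstream (175.8). The homeobox gene ct held 3 summits, the strongest with 188.4, and cv-c held 6, the strongest (263.0) past its 3′ end. In the window of RhoGEF64C (183.5) the nearest TSS was that of CG13713, and in that of vir-1 (113.7) that of Fam92. TotA, TotM, eve and vvl had no summit, and TotA and TotM no pooled entry at all.

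**Figure D4:**
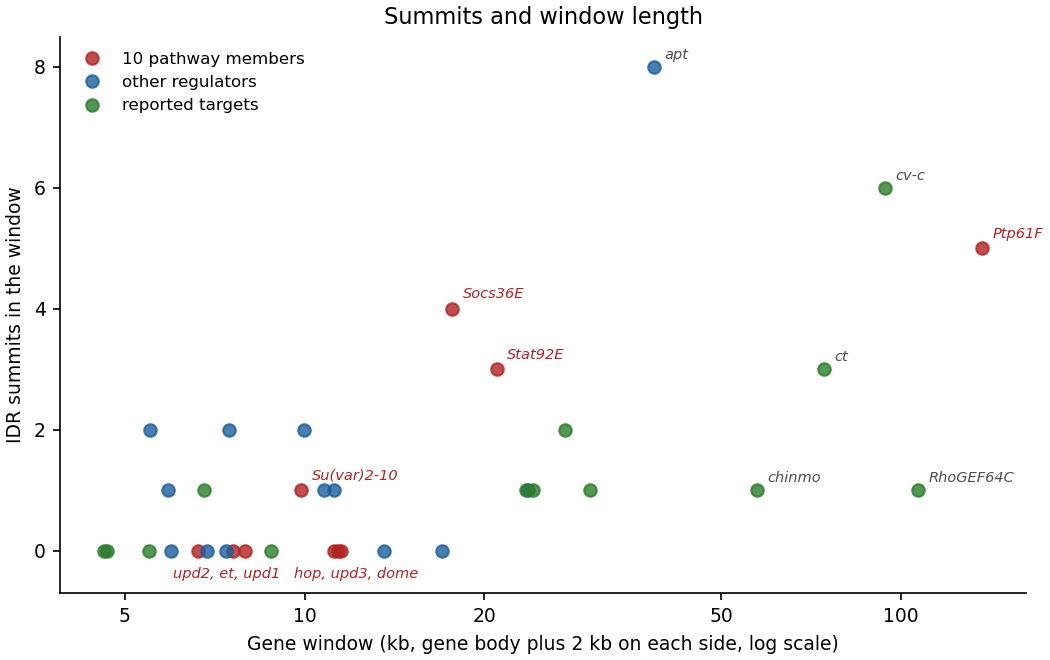
IDR summits per gene window (y axis) against window length in kb (x axis, log scale) for the 10 pathway genes (red), 13 other regulators (blue) and 13 reported targets (green). Socs36E and Stat92E hold 4 and 3 summits in windows of 17.7 and 21.0 kb, Ptp61F 5 in 137.0 kb, and the 6 genes without a summit have windows up to 11.5 kb.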

How the data were processed

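Anti-GFP ChIP-seq peaks from 2 Six4-GFP embryo samples were used, on dm6, with coordinates counted from 1. Per the listing deposited with the samples, each replicate list and the pooled list were made from aligned reads and 1 further file, also an input to tracks called control normalized but not itself described, and the IDR set was derived from the 3 lists. The deposited signal values and −log10 q values are the authors' peak caller's; ranks rest on signal, because the top −log10 q, 3.65, was tied over 2226 of the 3974 IDR peaks. Aligner, peak caller, versions and IDR cutoff: not given in the sources used here. The labels name a possible control experiment, which was not analysed here. 

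Summits were placed on genes with Ensembl 115 (BDGP 6.54), and no IDR peak ran past the end of its arm in the Release 6 sequence, over 6 arms. The TSS was that of any transcript of a protein-coding gene. Peaks matched between lists by an overlap of at least 1 bp, taking the strongest entry. Words were searched on both strands, 7 in all. Python 3.11.15, numpy 2.4.6, pandas 2.3.3 and matplotlib 3.10.9 were used, and the window, distance, matching and word functions were tested on simulated data. No test was made, since there is 1 group and genes are not replicates. The pathway genes and the lists were chosen with earlier results of these data known. Named were all 10 genes, the genes nearest to their summits, all genes of both lists, and the genes closest in signal to the strongest peak. The dm3 lists were not used. A sequence and a few names are not reported here.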

Additional observations from a re-analysis of the deposited data

How the results depend on the processing

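No paired analysis was possible because there is 1 group. Library depth is unknown and 13 summits are few, so shares among them are coarse. The list of genes with a summit held Stat92E and Socs36E under every alternative for windows, peak thresholds and replicates. Without an extension Su(var)2-10 was lost, and with 5 kb et was gained. With the nearest TSS rule Ptp61F and Su(var)2-10 were lost and upd1 gained. Without replicate 1, upd2 was gained, and the count ranged from 4 to 5 over the lists of single replicates.

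With all pooled entries, background included, 9 of 10 genes had a summit. Of all protein-coding genes 22.6% had no pooled entry in their window, so holding 1 is the common state. The windows of the 10 genes held 91, 27 of them within 500 bp of a TSS, and the median signal was 33.2. The number of summits was 6 with the nearest TSS rule and 7 among the strongest 1987 IDR peaks, and 11 to 13 over single replicates. The median signal was 124.7 with 5 kb, 121.6 with the nearest TSS rule, 181.5 among the strongest 1987, and 62.8 to 66.5 on the replicates' own scales. Summits within 500 bp of a TSS numbered 1 without an extension and 1 with the nearest TSS rule, and 3 to 4 over single replicates. Other pathway genes with a summit fell to 8 of 26 without an extension and ranged from 16 to 20 over single replicates. The share over all protein-coding genes is not given for these settings. All 13 summits were found in both replicates when entries of any rank counted. With 50 bp windows GAGAGAG was at 0 summits, and with 150 bp TGATAC was at 2. The cause of these changes was not tested.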

Other observations

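The widths of the peaks fell into a common value and a few narrower ones. Of the 13 peaks, 10 were 424 bp wide, the median width of the IDR set and the width of 83.9% of its peaks. The 3 narrower ones were the strongest of their genes: 138 bp at Socs36E, a width between the others at Ptp61F, and 317 bp at Su(var)2-10. The strongest Stat92E peak, with a lower signal than these, was 424 bp wide. Among the 500 strongest peaks of the IDR set, 63 had the common width.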
